A study of Mus musculus with 12 samples.

Results

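Apolipoproteins and the genes that load, remodel and export lipid were followed here in cells laser-captured as astrocytes from the lumbar cord. The mice were SOD1 G93A mice and their non-transgenic (NTg) littermates. Per the study, microglial and neuronal markers remained after capture, and the RNA came from mixed cells of which astrocytes were a significant part. The set holds 10 genes, chosen by symbol: the apolipoproteins Apoe, Apod, Clu and Apoc1, the lipases and transfer proteins Lpl and Pltp, the exporters Abca1 and Abcg1, the oxysterol enzyme Ch25h and the nuclear receptor gene Nr1h3. Every probe set annotated to 1 of these symbols was taken, which gave 19 of the 45101 probe sets on the array (a probe set is a group of short probes that reports 1 transcript or several). Of these, 16 probe sets from 9 genes were bright enough to be tested, among 26132 tested in all.

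The 4 groups were SOD1 G93A at 90 days, NTg at 90 days, SOD1 G93A at 120 days and NTg at 120 days, with 3 male mice each and 1 array per mouse. SOD1 G93A mice carry a human SOD1 gene with the G93A change and model amyotrophic lateral sclerosis, and the study treats the ages as the symptomatic and late stages. The transgene is expressed throughout the body and not in astrocytes alone. The mouse Sod1 probe set, which is not designed for the human gene, had log2 fold changes of -0.35 (SE 0.23) at 90 days and 0.04 (SE 0.23) at 120 days, with adjusted p of 1.00 and 0.929 in limma, so genotype could not be checked from it.

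Apolipoproteins are the protein shells of lipoprotein particles. In the brain and spinal cord APOE is released mainly by astrocytes, and also by microglia, and it accepts cholesterol and phospholipid pumped out of cells by ABCA1 and ABCG1. The liver X receptors (LXR, of which Nr1h3 encodes LXR alpha) sense oxysterols, oxidised forms of cholesterol, and switch on Abca1, Abcg1, Apoe and Lpl.

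RefSeq start sites (build GRCm38.p6) were listed for 6 of the 10 genes, each as 250 bases before the start and 50 from it. Abca1 is shown because it is the textbook LXR target here, and Apoe and Ch25h because both were called at 120 days in every alternative analysis. Apoe had 3 start sites listed, of which the first is shown. Capitals mark matches on either strand to 5 motifs: an LXR element of the DR4 type (GGTNA repeated in tandem, 5 free bases between), AP-1 (TGANTCA), STAT (TTCNNNGAA), PU.1 (GAGGAAGT) and a TATA box (TATAAA).
Abca1, chr4:53159846-53160145, minus strand: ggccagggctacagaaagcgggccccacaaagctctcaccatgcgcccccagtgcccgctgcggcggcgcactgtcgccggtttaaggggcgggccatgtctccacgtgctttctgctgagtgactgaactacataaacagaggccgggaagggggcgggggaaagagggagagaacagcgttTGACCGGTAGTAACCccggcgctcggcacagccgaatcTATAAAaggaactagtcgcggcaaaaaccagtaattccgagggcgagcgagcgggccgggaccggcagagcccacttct
Apoe, chr7:19699139-19699438, minus strand: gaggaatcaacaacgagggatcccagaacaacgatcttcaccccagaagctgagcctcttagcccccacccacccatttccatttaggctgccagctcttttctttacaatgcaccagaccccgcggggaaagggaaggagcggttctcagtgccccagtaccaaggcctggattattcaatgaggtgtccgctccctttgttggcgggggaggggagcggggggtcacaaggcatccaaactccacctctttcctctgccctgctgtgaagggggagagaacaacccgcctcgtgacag
Ch25h, chr19:34475099-34475398, minus strand: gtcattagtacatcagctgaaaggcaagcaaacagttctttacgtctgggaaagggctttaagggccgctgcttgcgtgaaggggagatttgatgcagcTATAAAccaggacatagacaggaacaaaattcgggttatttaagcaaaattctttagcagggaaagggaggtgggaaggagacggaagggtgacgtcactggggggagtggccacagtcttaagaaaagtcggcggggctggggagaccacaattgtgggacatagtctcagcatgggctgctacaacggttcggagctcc

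The Abca1 promoter held the DR4 letters on its reverse strand, from position -67 to position -53 relative to the start, and TATAAA from -29 to -24. The DR4 letters were present in 0.718% of the 32851 promoters of this length, TATAAA in 13.6%, TGANTCA in 7.81%, TTCNNNGAA in 8.3% and GAGGAAGT in 3.2%. In the Ch25h promoter TATAAA lay from -151 to -146, and the Apoe stretch shown held none of the 5 motifs. The second Apoe start site, not shown, had overlapping TATAAA matches from -100 to -95 on the reverse strand and from -96 to -91 on the forward strand, and the third had none. A match is a run of letters and was not tested as a binding site.

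**Figure D1:**
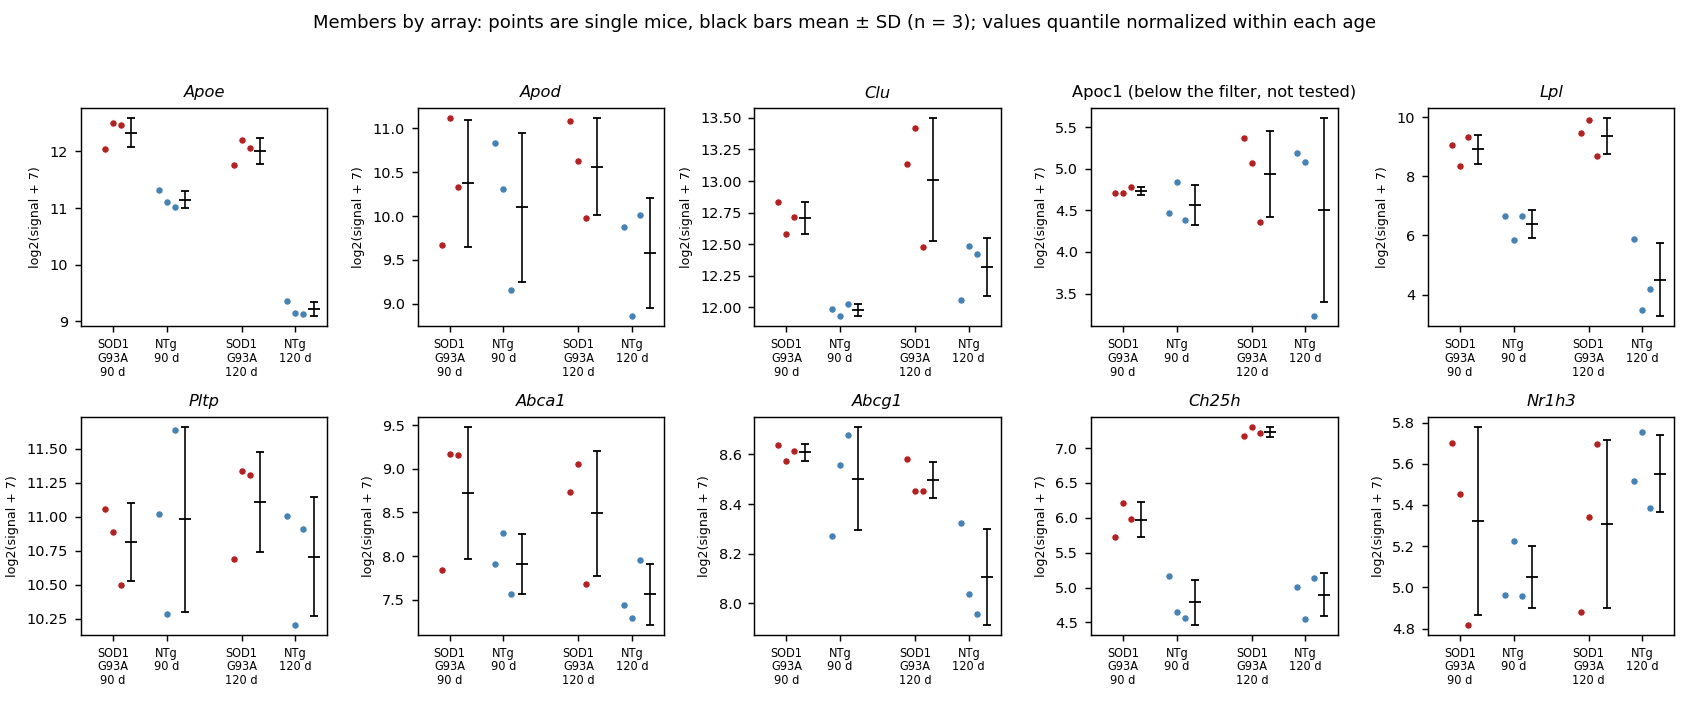
Normalised expression of each of the 10 genes on the 12 arrays (1 point per mouse; y axis log2(signal + 7), quantile normalised within each age; black bars mean ± SD, n = 3). Apoe, Lpl and Ch25h separate SOD1 G93A from NTg at both ages, and the other genes overlap in at least 1 age or differ by less.

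Values are the signals deposited for each array, in arbitrary units, and differences are on the log2(signal + 7) scale after quantile normalisation within each age. Calls are limma's, with Benjamini-Hochberg adjusted p under 0.05 over all 26132 probe sets. At 120 days 6 of the 16 probe sets, from 5 genes (Apoe, Apod, Clu, Lpl and Ch25h), were higher in SOD1 G93A, against a background of 3.60% of all probe sets called higher, and none was lower, against 3.86%. At 90 days none of the 16 passed (0.138% of all probe sets were called, in either direction), and 6 had an unadjusted p under 0.05, against 5.61% of all. By the fold of 2 and unadjusted p of 0.05 that the study's methods set, 4 probe sets of 3 genes (Apoe, Lpl and Ch25h) were higher at 90 days (0.999% of all) and 6 of 5 genes at 120 days (5.18% of all), and none was lower at 90 days (0.769% of all) or at 120 days (7.52% of all). At 120 days 11 of the 16 had an unadjusted p under 0.05, against 25.8% of all.

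All 3 SOD1 G93A arrays lay above all 3 NTg arrays for 9 probe sets of 5 genes at 90 days, against 5.74% of all probe sets tested. At 120 days this held for 9 probe sets of 6 genes, against 14.0% of all. The opposite order was seen for 1 probe set at 120 days, the dimmer of the Abcg1 pair, against 18.5% of all, and for none at 90 days, against 5.56%.

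**Figure D2:**
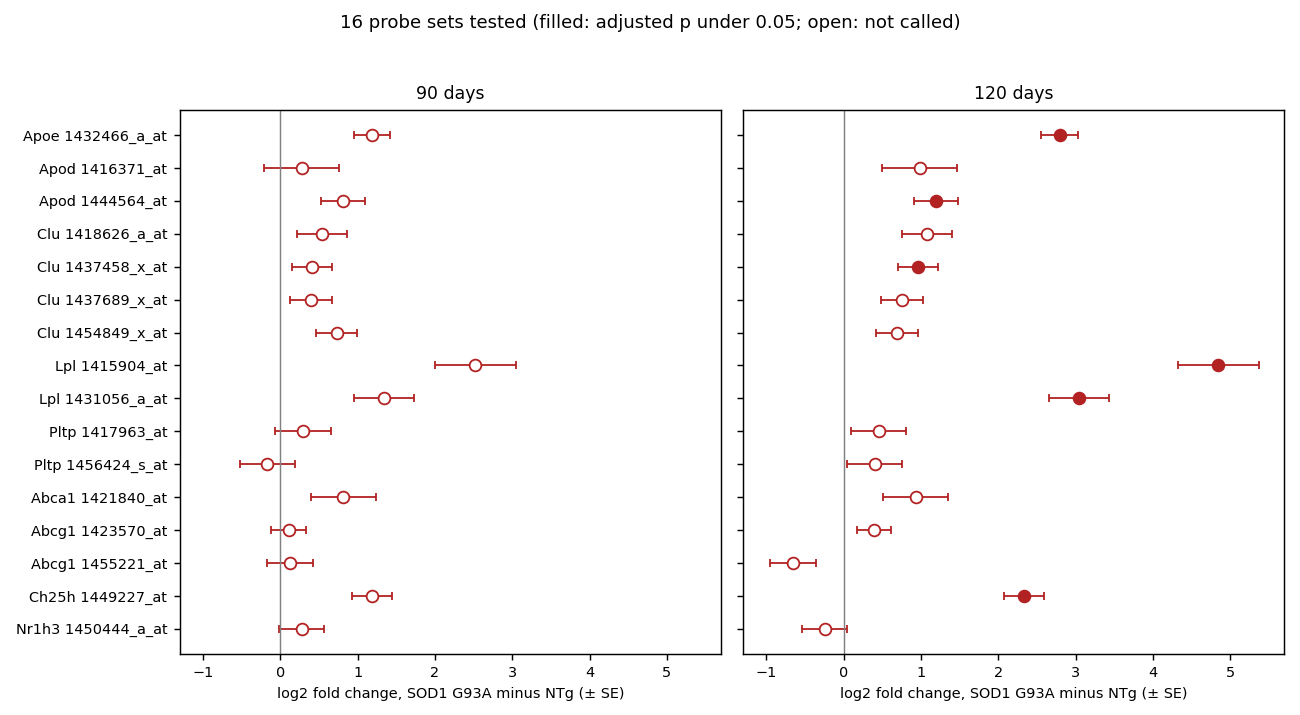
Log2 fold change, SOD1 G93A minus NTg, with its standard error, for the 16 probe sets tested at 90 days (left) and at 120 days (right). At 120 days the filled points, called at adjusted p under 0.05, are Apoe, 1 Apod, 1 Clu, both Lpl and Ch25h, and at 90 days no point is filled.

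Apoe, which encodes the main apolipoprotein of the central nervous system, rose at 120 days. Its signal was 3753, 4442 and 5048 on the SOD1 G93A arrays at 120 days, against 668, 639 and 583 on the NTg arrays. Its 90-day signal was 5055, 4948 and 5296 in SOD1 G93A, against 2394, 2108 and 2397 in NTg. The groups did not overlap at either age, and within each group the 3 mice were close to one another. The log2 fold change was 2.79 (SE 0.24) at 120 days, a 6.93-fold difference (95% interval 4.87 to 9.85), with an adjusted p of 6.89e-05 in limma. The 90-day change was 1.19 (SE 0.24), or 2.28-fold (1.60 to 3.24), with an adjusted p of 0.0943.

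Across the 4 groups, with all 12 arrays normalised together, Apoe averaged 12.05 ± 0.22 in SOD1 G93A at 120 days and 9.29 ± 0.13 in NTg at 120 days (log2 units, SD, n = 3). At 90 days the averages were 12.31 ± 0.28 in SOD1 G93A and 11.05 ± 0.14 in NTg. The SOD1 G93A groups of the 2 ages were not separated beyond their spread, whereas NTg at 90 days lay above NTg at 120 days. The ages were not compared by a test. The log2 ratio of 3′ to 5′ Gapdh signal, a measure of RNA quality, was 4.52 to 5.01 in NTg at 120 days and 3.49 to 4.60 in NTg at 90 days. In SOD1 G93A it was 4.39 to 5.08 at 120 days and 3.60 to 4.47 at 90 days, so the genotypes overlapped within each age, and its part in the order of the ages was not tested. The genotype difference was 1.60 larger at 120 than at 90 days (SE 0.33, unadjusted p = 0.000311 in limma), and its adjusted p of 0.212 did not pass. No probe set of the 26132 passed for this difference of differences, while 2414, or 9.24%, had an unadjusted p under 0.05, among them 4 member probe sets (Apoe, both Lpl and Ch25h).

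Apod encodes a lipocalin that binds arachidonic acid and other small lipids, and it was measured by 2 probe sets. On the dimmer, 1444564_at, the signal was 278, 195 and 221 in SOD1 G93A at 120 days, against 111, 73.6 and 104 in NTg. At 90 days it was 284, 522 and 299.8 in SOD1 G93A, against 182, 182 and 234 in NTg. The groups did not overlap at either age. The log2 fold change was 1.19 (SE 0.28, adjusted p = 0.0252) at 120 days and 0.81 (SE 0.28, adjusted p = 0.629) at 90 days.

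The brighter Apod probe set, 1416371_at, had signals of 2414, 1514 and 871 in SOD1 G93A at 120 days, against 937, 509 and 1042 in NTg. At 90 days its signals were 813, 1955 and 1257 in SOD1 G93A, against 1763, 1296 and 556 in NTg. Both ages overlapped, and the spread within a group reached more than the difference between groups at 90 days. Its log2 fold change of 0.98 (SE 0.48, adjusted p = 0.221) at 120 days was not called. The call on 1444564_at was lost when the SOD1 G93A array of replicate 1 or any single NTg array at 120 days was left out, with adjusted p up to 0.126.

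Clu encodes clusterin, also called apolipoprotein J, a secreted chaperone of lipoproteins and misfolded proteins. Its 4 probe sets were all higher in SOD1 G93A on average at both ages, and only 1437458_x_at was called, at 120 days. On that probe set the normalised log2 values were 13.24, 13.29 and 12.47 in SOD1 G93A at 120 days, against 12.09, 11.90 and 12.12 in NTg. The SOD1 G93A array of replicate 3 was nearest to NTg, and the groups did not overlap. The log2 fold change was 0.96 (SE 0.26, adjusted p = 0.0392).

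The other 3 Clu probe sets had log2 fold changes at 120 days of 1.07 (SE 0.33, adjusted p = 0.0607) for 1418626_a_at, 0.75 (SE 0.27, adjusted p = 0.0982) for 1437689_x_at and 0.69 (SE 0.27, adjusted p = 0.124) for 1454849_x_at. At 90 days the 4 probe sets ranged between 0.40 and 0.73, with every adjusted p at 0.685 or above. Probe sets ending in _x_at can also bind similar transcripts, and the 4 read 1 gene, so they are not separate evidence. The call on 1437458_x_at was lost without any 1 of the NTg arrays at 120 days, SOD1 G93A replicate 1 or 2 at 120 days, SOD1 G93A replicate 2 or 3 at 90 days or NTg replicate 1 at 90 days, with adjusted p up to 0.139.

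Apoc1 encodes a small apolipoprotein that slows lipoprotein lipase and binding to receptors. It lay below the median of its array on all 12 arrays and was not tested. Its signal was 34.8, 30.5 and 21.3 in SOD1 G93A at 120 days, against 28.3, 17.9 and 1.8 in NTg. At 90 days it was 20.7, 19.8 and 19.9 in SOD1 G93A, against 14.1, 18.8 and 16.4 in NTg. The deposited signals overlapped at 120 days and not at 90 days, and after normalisation they overlapped at both.

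**Figure D3:**
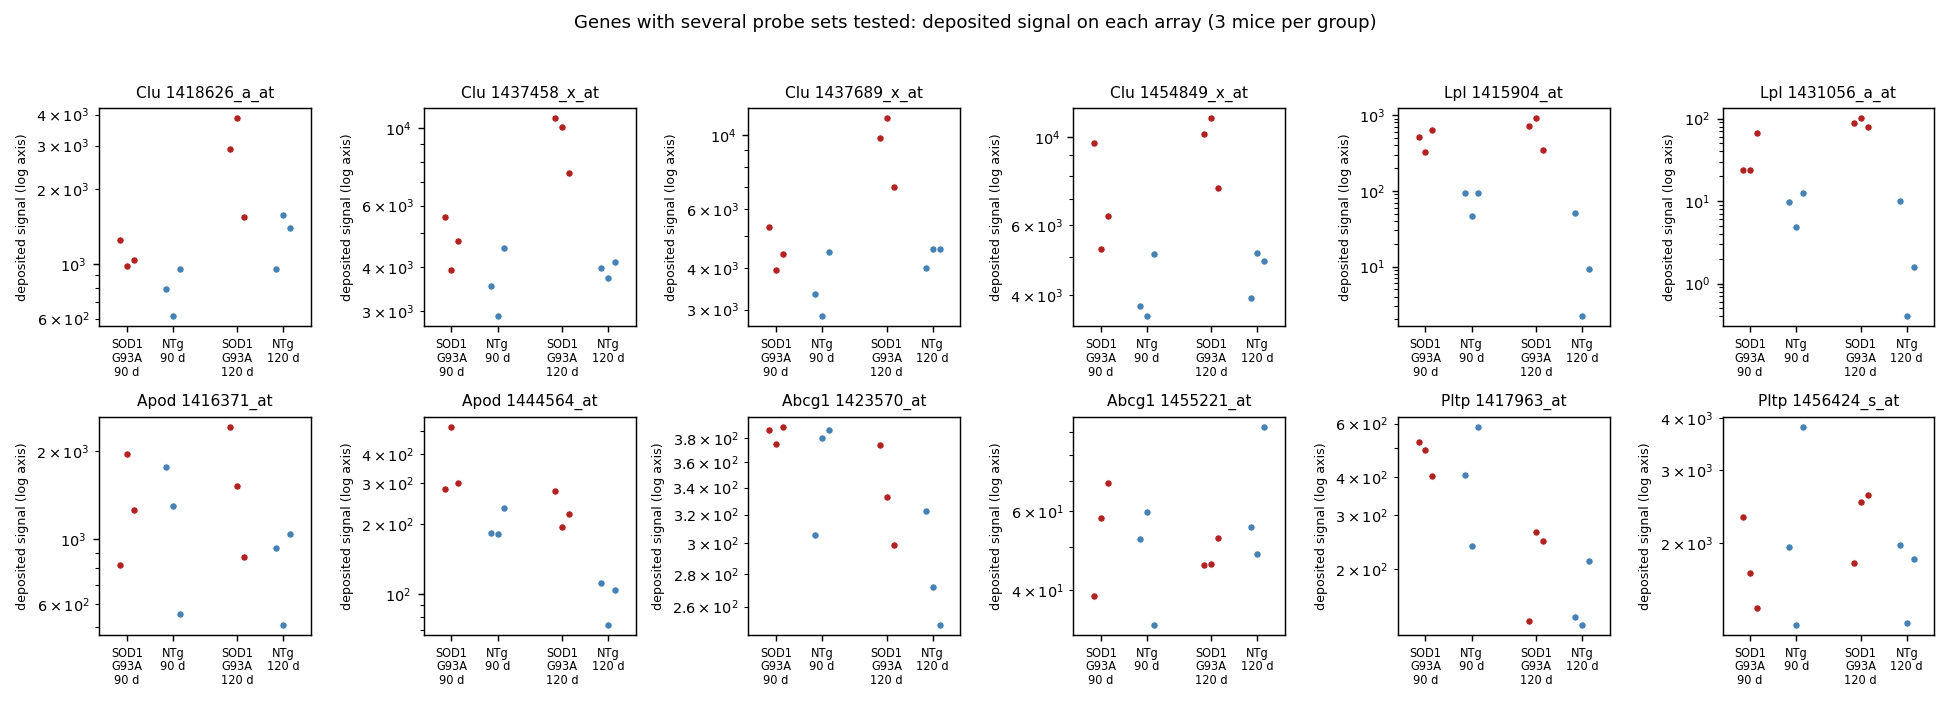
Deposited signal on each of the 12 arrays, on a log axis, for the genes with several probe sets tested (4 for Clu and 2 each for Lpl, Apod, Abcg1 and Pltp; 1 point per mouse). Both Lpl probe sets place every SOD1 G93A array above every NTg array at each age, while the members of the Apod and Abcg1 pairs differ from each other.

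Lpl encodes lipoprotein lipase, which frees fatty acids from triglyceride-rich particles, and it showed the largest difference of the 16 probe sets. On 1415904_at the signal was 708.5, 910 and 348 in SOD1 G93A at 120 days, against 50.5, 2.2 and 9.4 in NTg. The 90-day signal was 515.5, 323 and 635 in SOD1 G93A, against 94.8, 46.5 and 93 in NTg. The groups were far apart at both ages, and in NTg at 120 days only replicate 1 was above the median of its array. The log2 fold change was 4.85 (SE 0.53), or 28.7-fold (95% interval 13.1 to 63.1), with an adjusted p of 0.000288 at 120 days. The 90-day change was 2.52 (SE 0.53), or 5.75-fold (2.62 to 12.6), with an adjusted p of 0.128.

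The size of the 120-day change depended on how the faint NTg signals were handled: it was 5.47 with an offset of 1 and 3.68 with an offset of 34.4. It was also 5.52 without NTg replicate 1 and 4.22 without NTg replicate 2. The second probe set, 1431056_a_at, had signals of 87.8, 101 and 79.2 in SOD1 G93A at 120 days, against 10.1, 0.4 and 1.6 in NTg. Every SOD1 G93A array lay above the median of its array, and no NTg array did. The log2 fold change was 3.04 (SE 0.39, adjusted p = 0.000753), and it was 4.37 with the offset of 1 and 1.59 with the offset of 34.4.

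At 90 days 1431056_a_at gave 23.6, 24.1 and 67.6 in SOD1 G93A, against 9.7, 4.9 and 12.6 in NTg, a log2 fold change of 1.35 (SE 0.39, adjusted p = 0.419). The groups did not overlap, and SOD1 G93A replicate 3 was the highest. Normalised together, 1415904_at was not separated between SOD1 G93A at 90 and at 120 days, and NTg at 90 days lay above NTg at 120 days, the same order as for Apoe. The genotype difference was 2.32 larger at 120 days (SE 0.75, unadjusted p = 0.00791, adjusted p = 0.433).

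Pltp encodes phospholipid transfer protein, which moves phospholipids between particles. Its brighter probe set, 1456424_s_at, had signals of 1795, 2509 and 2615 in SOD1 G93A at 120 days, against 1982, 1287 and 1840 in NTg. Its dimmer one, 1417963_at, had 135, 265 and 246 in SOD1 G93A, against 139, 131 and 212 in NTg. Both overlapped at 120 days and at 90 days. The log2 fold changes at 120 days were 0.40 (95% interval -0.36 to 1.17) and 0.45 (-0.32 to 1.22), with adjusted p of 0.501 and 0.448, and on 1417963_at the sign turned to -0.01 when arrays were centred on their medians.

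Abca1 encodes the exporter that passes cholesterol and phospholipid to lipid-poor apolipoproteins. Of its 3 probe sets only 1421840_at was tested. Its signal was 421, 503 and 188 in SOD1 G93A at 120 days, against 167, 147 and 249.8 in NTg. On the 90-day arrays it was 218, 556 and 567 in SOD1 G93A, against 236, 307 and 175 in NTg. At each age 2 SOD1 G93A mice were above all NTg mice and the other was not, so the groups overlapped. The log2 fold changes were 0.93 (95% interval 0.03 to 1.83, adjusted p = 0.178) at 120 days and 0.81 (-0.08 to 1.71, adjusted p = 0.934) at 90 days.

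The remaining Abca1 probe sets, 1421839_at and 1450392_at, were too dim to test. The signal of 1421839_at was 25.5, 32 and 63.1 in SOD1 G93A at 120 days, against 17.5, 10.3 and 23.1 in NTg. Every deposited SOD1 G93A signal exceeded every NTg signal at 120 days, while after normalisation the groups overlapped. On 1450392_at no array exceeded its own median.

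Abcg1 encodes a partner exporter that delivers cholesterol to particles already carrying lipid. Its brighter probe set, 1423570_at, had normalised log2 values of 8.58, 8.45 and 8.45 in SOD1 G93A at 120 days, against 8.32, 8.04 and 7.96 in NTg. The groups did not overlap and the difference was small, with a log2 fold change of 0.39 (95% interval -0.09 to 0.87, adjusted p = 0.285), which turned to -0.14 when arrays were centred on their medians. The dimmer probe set, 1455221_at, had 5.72, 5.60 and 5.43 in SOD1 G93A, against 6.00, 6.04 and 6.67 in NTg, a log2 fold change of -0.66 (SE 0.30, adjusted p = 0.189). The 2 probe sets of this gene therefore lay on opposite sides of 0 at 120 days, neither of them called, and at 90 days both were near 0 (0.11 and 0.12).

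Ch25h encodes cholesterol 25-hydroxylase, which makes 25-hydroxycholesterol and is induced in macrophages and microglia by inflammatory signals. Its signal was 135, 153 and 144 in SOD1 G93A at 120 days, against 24, 10 and 24.1 in NTg. At 90 days it was 46.3, 71.2 and 56.4 in SOD1 G93A, against 28, 15.5 and 19.1 in NTg. The groups did not overlap at either age, and no NTg array at 120 days exceeded the median of its array. The log2 fold change was 2.33 (SE 0.26), or 5.04-fold (95% interval 3.43 to 7.41), with an adjusted p of 0.000329 at 120 days.

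At 90 days the log2 fold change of Ch25h was 1.19 (SE 0.26, adjusted p = 0.147), or 2.28-fold. With all arrays normalised together Ch25h was higher in SOD1 G93A at 120 days than at 90 days beyond the spread, and the NTg groups of the 2 ages were not separated, unlike Apoe and Lpl. The genotype difference was 1.15 larger at 120 days (SE 0.37, unadjusted p = 0.0076, adjusted p = 0.432). The 120-day value was 1.62 with an offset of 34.4.

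Nr1h3, which encodes LXR alpha, had signals of 23, 37.8 and 61.8 in SOD1 G93A at 120 days, against 37.2, 36 and 30.4 in NTg. At 90 days it had 45.4, 38.8 and 20.5 in SOD1 G93A, against 23.4, 26.8 and 26.4 in NTg. The groups overlapped at both ages, and the spread was wider in SOD1 G93A. The log2 fold changes were -0.25 (95% interval -0.87 to 0.38, adjusted p = 0.622) at 120 days, which turned to 0.13 on the values as deposited, and 0.27 (-0.35 to 0.89, adjusted p = 1.00) at 90 days.

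After the mean of each age was subtracted, Apoe and Ch25h correlated at r = 0.983 across the 12 arrays, Apoe and Lpl at 0.948 and Lpl and Ch25h at 0.946. These values describe arrays that share the genotype difference. With the mean of each group subtracted instead, the same pairs were at 0.625, 0.242 and 0.274, and the highest of all member pairs was Apod with Ch25h at 0.821. With the genotype difference kept, the genes most like Apoe were Ch25h, Mpeg1 (0.982) and Lgals3 (0.977). Those most like Lpl were Ctdsp2 (0.986), Grn (0.973) and Csf1r (0.971), and those most like Ch25h were Apoe, A2m (0.981) and Mpeg1 (0.98).

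The remaining members followed other genes. Clu, on its brightest probe set, was most like Cd22 (0.945), Cd34 (0.935) and Rhoj (0.934). Abca1 was most like Dhrs1 (0.973), Rnf181 (0.936) and Pros1 (0.922), and Apod most like Litaf (0.92), Carhsp1 (0.916) and Tmem88b (0.91). Abcg1 was led by Cyp3a13 (0.932), Pltp by Ptprb (0.931) and Nr1h3 by Cacul1 (0.954).

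**Figure D4:**
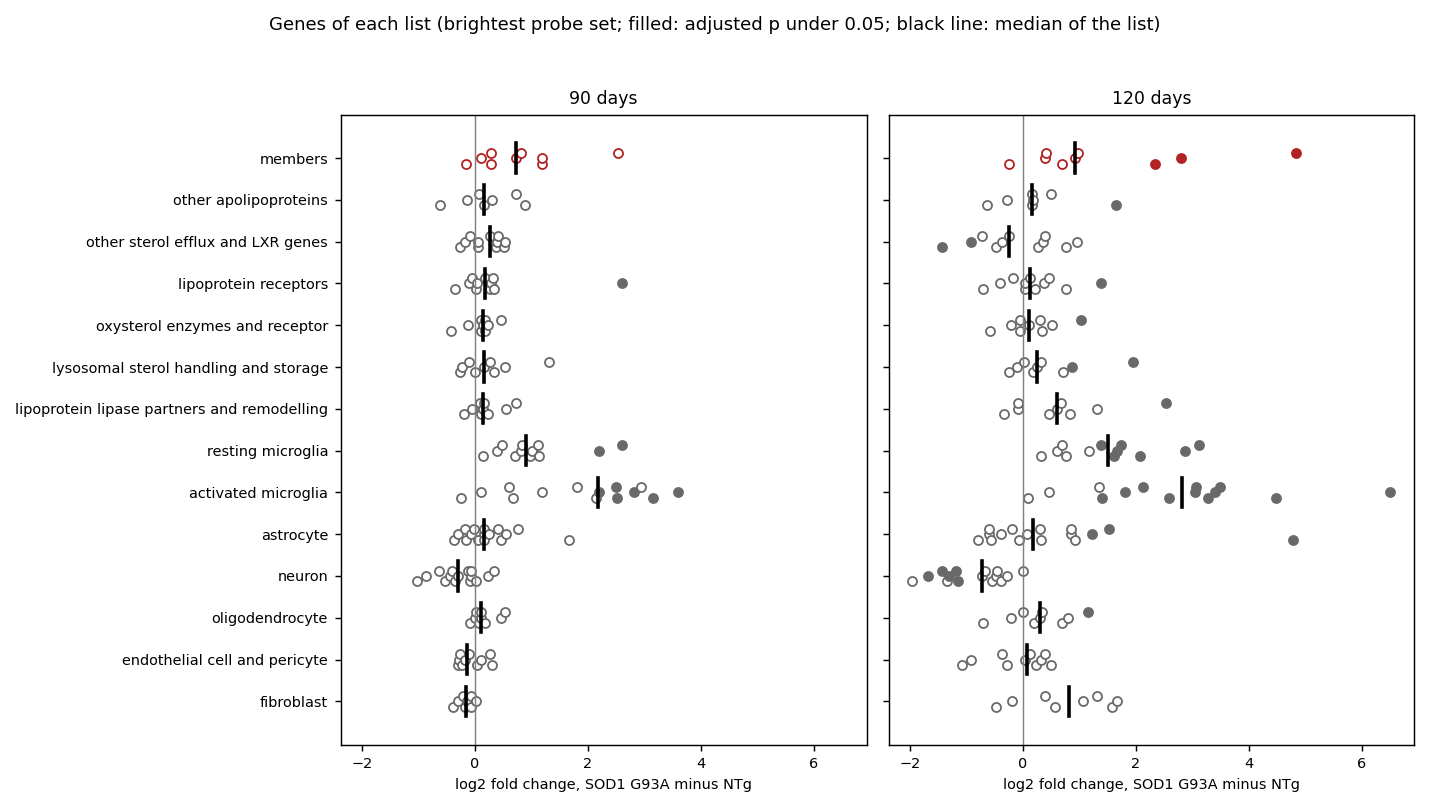
Log2 fold change, SOD1 G93A minus NTg, of each gene tested in 14 lists (brightest probe set of a gene; filled points adjusted p under 0.05; black lines list medians; shared x axis) at 90 days and at 120 days. The microglial lists lie furthest right at both ages, and the neuronal list lies left of 0 at 120 days.

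Other genes of the pathway were read from 6 lists, each gene by its brightest probe set. Over all 12429 genes tested the median log2 fold change was 0.02 at 90 days and -0.08 at 120 days, with 4.14% of genes higher and 4.47% lower at 120 days. The 9 members tested had medians of 0.73 at 90 days and 0.93 at 120 days. Read this way 3 members, Apoe, Lpl and Ch25h, were called higher in SOD1 G93A than in NTg at 120 days. In the lists that follow, rose and fell mean called higher or lower in SOD1 G93A than in NTg of the same age.

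Among the other apolipoproteins 1 of 7 tested genes rose at 120 days and none fell. This was Apoc2, the activator of lipoprotein lipase and a neighbour of Apoe and Apoc1 on chromosome 7, at 1.64 (SE 0.45, adjusted p = 0.0423). Its signal was 40, 68.3 and 93.7 in SOD1 G93A at 120 days, against 16.6, 14.5 and 5.1 in NTg. It exceeded the array median only on the 3 SOD1 G93A arrays at 120 days. The filter was thus met only through the group where Apoc2 was high, and without the filter the adjusted p was 0.0712 in limma. Its call was kept in 11 of 21 alternatives. Among other sterol exporters and LXR genes none of 11 rose and 2 fell at 120 days: Abca5 at -1.44 (SE 0.30, adjusted p = 0.0138) and Abcg4 at -0.93 (SE 0.25, adjusted p = 0.0416), the second a call kept in 13 of 25 alternatives. The Abca5 call was kept in 21 of 25. With the mean of all its probe sets the Abca5 change was -0.59 and not called (adjusted p = 0.0758 in limma). Nr1h2, Arl4c and Ncor1 of this list had no probe set annotated to their symbol alone.

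Of 11 lipoprotein receptor genes tested, only Trem2, a microglial receptor that binds APOE and CLU, was called higher, and none fell. Its log2 fold change was 2.61 (SE 0.37, adjusted p = 0.0135 in limma) at 90 days and 1.39 (SE 0.37, adjusted p = 0.0405) at 120 days. The signal was 72.7, 74.9 and 71.5 in SOD1 G93A at 90 days, against 8.1, 3.3 and 6.9 in NTg. At 120 days it was 56.1, 23.2 and 17.3, against 5.2, 1.5 and 6.3. Only SOD1 G93A arrays exceeded their medians, 3 at 90 days and 1 at 120 days. The filter was thus met only through the groups where Trem2 was high. The Trem2 call was kept in 17 of 24 alternatives at 90 days and in 9 of 24 at 120 days, and the 90-day call was lost with the replicate block, the unmoderated test and 5 of the 12 arrays left out in turn. Of 9 oxysterol genes Gpr183, a receptor for oxysterols derived from 25-hydroxycholesterol, rose at 120 days by 1.02 (SE 0.29, adjusted p = 0.0481), a call kept in 6 of 24 alternatives. None of these 9 fell, and the list median was 0.11.

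Of 9 lysosomal and storage genes 2 rose at 120 days, both coats of lipid droplets: Plin2 by 1.95 (SE 0.28, adjusted p = 0.00186) and Plin3 by 0.88 (SE 0.23, adjusted p = 0.0351), a call kept in 15 of 25 alternatives. Npc2, which carries cholesterol out of lysosomes, was at 0.71 (adjusted p = 0.0566). Of 9 lipase partners and fatty acid carriers Fabp7, the brain fatty acid binding protein of immature and reactive astrocytes, rose by 2.53 (SE 0.36, adjusted p = 0.00177), and Angptl4, an inhibitor of lipoprotein lipase, was at 1.31 (adjusted p = 0.111). No gene of these 2 lists fell, and none passed at 90 days.

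Marker genes of other cells moved with the members. Of 12 tested markers of resting microglia 2 were higher at 90 days and 7 at 120 days. Of 14 markers of activated microglia 6 were higher at 90 days and 11 at 120 days. Over all genes tested 0.185% were higher at 90 days and 4.14% at 120 days. The 90-day calls on Gpnmb, Itgax and Lyz2 were kept in 9, 18 and 19 of 25 alternatives. Those on Cst7, Cd68, Clec7a and Fcrls were kept in all 25. The activated list had medians of 2.17 at 90 days and 2.82 at 120 days. Its lead genes at 120 days were Lgals3 (6.51, SE 0.57, adjusted p = 8.06e-05) and Cst7 (4.49, SE 0.29, adjusted p = 1.27e-05). Both were called in all 25 alternatives, but their size varied, from 5.04 to 7.45 for Lgals3 and from 2.78 to 5.77 for Cst7. Among the resting markers Csf1r was at 2.07 (SE 0.25, adjusted p = 0.000511) and Cx3cr1 at 1.74 (SE 0.41, adjusted p = 0.0228), while P2ry12 (0.70, adjusted p = 0.117) and Tmem119 (1.17, adjusted p = 0.131) did not pass.

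The summed signal of the resting markers was 9617 to 11254 in SOD1 G93A and 1787 to 2037 in NTg at 120 days, and 6492 to 10382 in SOD1 G93A and 2965 to 5458.5 in NTg at 90 days. For the activated markers it was 12774 to 13810 in SOD1 G93A and 4648 to 5979 in NTg at 120 days, and 10197 to 14676.5 in SOD1 G93A and 7230 to 12558 in NTg at 90 days. Csf1r, which defines the microglial lineage, exceeded the median of its array on all 12 arrays, with signals of 3994, 4173 and 4203 in SOD1 G93A and 1014, 905.5 and 1003 in NTg at 120 days. Trem2 counts in the receptor list and in the resting list. The part of the microglial markers in the higher SOD1 G93A values of Apoe, Lpl, Ch25h, Trem2 and Apoc2 was not tested. In captured tissue more cells of a type and more RNA per cell cannot be told apart.

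All 16 astrocyte markers were tested, and 3 rose at 120 days: Gfap (4.79, SE 0.46, adjusted p = 0.000123), Sox9 (1.53, adjusted p = 0.0241) and Aldh1l1 (1.22, adjusted p = 0.0082). None rose at 90 days and none fell at either age, and Slc1a2 (0.08) and Gja1 (0.32) were not called. Of 15 neuronal markers 5 fell at 120 days, led by Nefm at -1.68 (SE 0.34, adjusted p = 0.0124). Of 9 oligodendrocyte markers Opalin rose (1.16, adjusted p = 0.0438, a call kept in 10 of 25 alternatives), and no marker of 10 for vessels or 8 for fibroblasts passed. The part of these markers in the members' values was not tested either.

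Median signals were 24.9 to 37.1 on the arrays of 3 groups and 38.8 to 55.2 on those of SOD1 G93A at 120 days. The trimmed mean was 100 on every array, so the difference lay in the shape of the distribution. The 20th percentile was 10 to 15 in SOD1 G93A at 120 days and 4.5 to 9.5 in the other groups. Arrays of SOD1 G93A at 120 days also had the lowest mean correlation with the others of their group. It was 0.835 to 0.88, against 0.914 to 0.952 for the other 3 groups. Apoe, Ch25h and both Lpl probe sets were called at 120 days under every normalisation and with any 1 of the 12 arrays left out.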

How the data were processed

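RNA of cells laser-captured as astrocytes from 12 mice was amplified in rounds of linear amplification and hybridised to Affymetrix Mouse Genome 430 2.0 arrays, 1 mouse per array. The labels and the methods differ on the stain used to find the cells. The authors deposited 1 intensity (MAS5 signal, not log transformed) per probe set and array, per the labels, whereas the methods name PLIER and GeneSpring. Precision is limited by 3 arrays per group.

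Signals were taken as log2(signal + 7), 7 being the 20th percentile of all values, and quantile normalised within each age. The filter kept probe sets that exceeded the array's median signal on 3 or more arrays and left out 64 control probe sets. Of all probe sets 34958 had 1 gene symbol, 932 several and 9211 none in the platform annotation, and no member symbol stood among several. limma 3.58.1 in R 4.3.3 fitted the 4 group means on all 12 arrays (residual degrees of freedom 8), and p was adjusted by Benjamini-Hochberg over 26132 probe sets with a threshold of 0.05. The fit was tested on simulated data. A gene with several probe sets was read by its brightest where 1 value was needed. Named genes were all members, up to 4 of each pathway list and 3 of each marker list by smallest p, with genes that define a cell type, and the 3 genes most like each member. The members and lists were chosen with earlier results of these data known. Promoters were RefSeq's, build GRCm38.p6. Plots used matplotlib 3.10.9.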

Additional observations from a re-analysis of the deposited data

How the results depend on the processing

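Apoe, Ch25h and both Lpl probe sets were called at 120 days in all 98 of their alternative values. Lpl 1431056_a_at had 23 of these, against 25 for each of the others. It fell below the filter at the 75th percentile. The mean of all probe sets of a gene was counted once, under the brighter probe set. It exceeded the array median on 1 SOD1 G93A array at 90 days, on all 3 at 120 days and on no NTg array. Ch25h exceeded it on every SOD1 G93A array and on 1 NTg array, at 90 days. Both met the filter only through the SOD1 G93A arrays, where they were high. The count of member probe sets called at 120 days was 6, and it was 10 with array weights and 4 to 8 with 1 array left out. Under median centring, each age fitted alone, the replicate block or without an NTg array at 120 days it was 4. The calls on Apod 1444564_at and Clu 1437458_x_at were the ones lost, while Trem2 at 120 days was called in 9 of 24 alternatives. At 90 days the count was 0, and it was 2 with the offset of 34.4 or a trended and robust prior (Apoe and Lpl) and 1 with the filter at the 75th percentile, array weights or gene means (Apoe each time). With 1 array left out it was 0 to 1. For the difference of the ages it was 0, 1 with the trended prior (Apoe, adjusted p = 0.0293) and 0 to 0 with 1 array left out.

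Over all probe sets at 120 days 1948 were called, and 3500 under median centring, 2953 with the offset of 34.4, 1244 without a filter, 759 with each age alone, 1063 with the replicate block, 1274 with the unmoderated test and 475 (without NTg replicate 2 at 120 days) to 2432 with 1 array left out. Of the calls 48.3% were higher in SOD1 G93A, and 19.0% under median centring, which moved the median of all probe sets by -0.26, and 61.4% with each age alone. At 90 days 36 were called, and 68 with the offset of 34.4, 22 without a filter, 13 with each age alone, 17 with the replicate block, 131 with array weights, 17 unmoderated and 12 to 60 with 1 array left out. For the difference of the ages the count was 0, 3 with the offset of 34.4, 20 with the trended prior and 0 to 11 with 1 array left out. The cause was not tested.

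The sign turned in 31 uncalled values. At 90 days these were Apod 1416371_at with array weights (-0.046) and Pltp 1456424_s_at with gene means (0.061). At 120 days they were Abcg1 1423570_at (-0.14 median centred, -0.13 gene means), Pltp 1417963_at (-0.0069 median centred) and Nr1h3 (0.13 as deposited). In the difference of the ages they were Clu 1454849_x_at (0.29 as deposited, 0.16 array weights, 0.35 gene means), Abca1 1421840_at (-0.25 median centred), Abcg1 1423570_at (-0.19 median centred, -0.25 gene means) and Pltp 1417963_at (-0.23 median centred, -0.056 array weights). With 1 array left out, the 90-day ranges that crossed 0 were -0.19 to 0.65 for Apod 1416371_at, -0.0091 to 0.19 for Abcg1 1423570_at, -0.12 to 0.33 for Abcg1 1455221_at, -0.055 to 0.59 for Pltp 1417963_at and -0.53 to 0.15 for Pltp 1456424_s_at. Those for the difference of the ages were -0.25 to 0.15 for Clu 1454849_x_at, -0.32 to 0.56 for Abca1 1421840_at and -0.14 to 0.51 for Pltp 1417963_at.

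Same-numbered mice did not deviate together (r of -0.27, 0.28 and -0.28 at 90 days, and -0.07, 0.04 and -0.01 at 120 days), so the numbers were not taken as pairs. The highest r at 90 days, 0.46, was between SOD1 G93A replicate 1 and NTg replicate 3. Their log2 ratios of 3′ to 5′ Gapdh signal, 4.47 and 4.60, were the highest of their groups. Its part in the 90-day results was not tested. Faint signals, such as Lpl in NTg at 120 days, bound the fold changes only loosely.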
